A study of Mus musculus with 2 samples.

Results

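The cell cycle engine of the embryonic cortex was examined through 44 genes for cyclins, cyclin-dependent kinases, their activating phosphatases and docking subunits, their inhibitors, and the Rb and E2F proteins they act on. They are all genes whose symbol follows a fixed pattern of these families, with Cdkn1c left out. The pattern was Ccn plus 1 letter and any number, Cdk plus a number alone, Cdkn, E2f, Cdc25, Cks1, Cks2, Rb1, Rbl1 and Rbl2. Cks1b and Cdk11b carry a further letter and were not taken in. The genes were taken by name, with earlier results of these data known. They were measured by 57 of the 10833 probe sets with a single gene symbol, which cover 8251 genes. RNA came from cerebral cortex of E14.5 mouse embryos of the NMRI strain that were Pax6-/- or wild type, and each genotype has 1 Affymetrix array. The submitters describe 3 mutant and 3 wild type embryos. Pooling on the arrays and the Pax6 allele carried are not stated.

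Pax6 is a transcription factor of radial glia, the dividing stem cells that line the cortical ventricle, and the study asked which genes depend on it there. In a dividing cell, D-type cyclins activate Cdk4 and Cdk6 in G1, cyclins E and A activate Cdk2 at the entry into and during DNA replication, and cyclin B with Cdk1 drives mitosis. Cdk4, Cdk6 and Cdk2 phosphorylate Rb1 and its relatives and so release E2F factors, while the Cdkn inhibitors hold the kinases back. In the cortex, neurons no longer divide, so transcripts of this machinery come mainly from radial glia and intermediate progenitors, and some members (Cdk5, Ccnt1, Cdk9) work outside the cell cycle.

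With 1 array per genotype there was no replicate check, no test between genotypes was possible and no p-value is given. Each log2 ratio is Pax6-/- minus wild type, on the scale of log2 of the MAS5 signal plus a pseudocount of 81.5, which understates the difference of dim genes. Folds, and the 2-fold mark, are taken from this ratio after centring. They therefore differ from the quotient of the printed signals. Ratios were read for genes above a signal filter, a signal of about 166, and a gene with several probe sets was represented by the brightest. The error attached to a ratio is a technical spread, taken from the disagreement between probe sets in the 894 genes that had more than 1 past the filter. It was 0.73 on the log2 scale at signals below 471, 0.55 from there to 828 and 0.39 above that. The spread does not include differences between embryos. Differences between the arrays that move the probe sets of a gene alike are also left out. In tissue RNA, fewer cells of a type and less RNA per cell cannot be told apart. The Pax6 probe set read 447 on the Pax6-/- array and 1169 on the wild type array, and its position relative to the mutation was not determined.

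Among the members above the filter, the largest difference was in the D-type cyclins. The signals of the mitotic members were nearly equal on both arrays before any further scaling. Ccnd2 was the only one past 2-fold, higher in the mutant, and Ccnd1 lay just short of that mark. Ccne1, which acts at the end of G1, had the lowest ratio. The filter was passed by 34 of the 44 genes. By the centred log2 ratio, 15 of these were higher in the mutant and 19 lower, with a median of -0.02, and higher and lower are counted in this way below. By the signals themselves 19 read higher in the mutant and 15 lower, since the centring of 0.05 turned the sign of 4 genes with nearly equal readings, Ccnb2, Cdk5, Cdk18 and Rbl1. Each of the 34 read at least 186 on both arrays, so none passed the filter through 1 array alone. The median of all 5587 genes above the filter was also -0.02, and 48.4% of them were higher in the mutant. The single member at least 2-fold higher made up 2.94% of the 34, against 5.05% of all genes, and 0 members were at least 2-fold lower, against 5.48% of all genes; 10.5% of all genes passed in either direction. The SD of the ratios was 0.45 over the members and 0.62 over all genes. In the upper tercile of all genes by signal, which held 17 of the members, 0.698% of genes passed 2-fold with the mutant higher and 2.36% with it lower. With 1 and 0 members past 2-fold, nothing particular to these families is read from the counts.

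**Figure D1:**
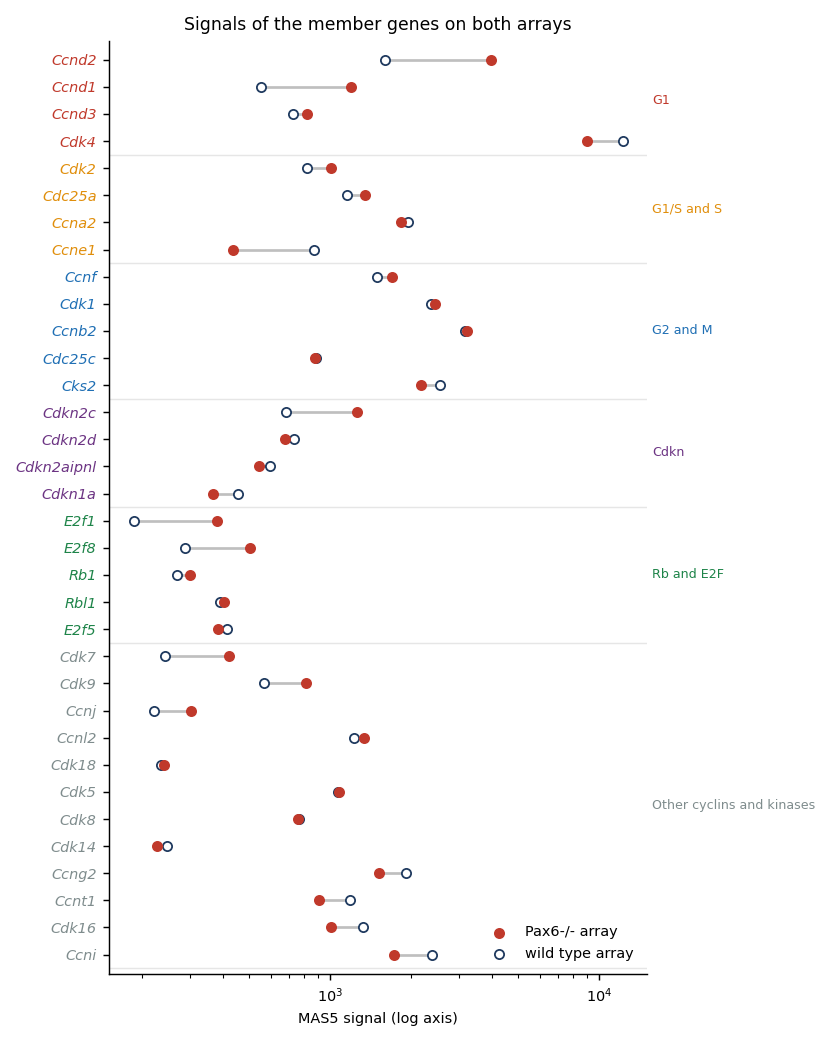
MAS5 signals (log axis) of the 34 member genes above the filter on the Pax6-/- array (filled) and the wild type array (open), 1 probe set per gene, grouped by role. The longest lines belong to Ccnd2, Ccnd1 and E2f1, with the mutant to the right, and to Ccne1, with the mutant to the left. The G2 and M genes have nearly coinciding points.

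The G1 group held Ccnd1, Ccnd2, Ccnd3 and Cdk4, all above the filter. Cdk6 had no probe set with that single gene symbol. Ccnd2, a D-type cyclin whose mRNA is carried into the basal process of mouse radial glia, had a signal of 3939 in the mutant and 1597 in wild type. This was a 2.32-fold difference, a log2 ratio of 1.21, and 3.12 times the technical spread of 0.39. It ranked 167th from the highest among the 5587 genes. Over the 9 alternative settings tried, its ratio ran from 1.14 to 1.41, past 2-fold in all of them.

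Ccnd1, the D-type cyclin through which many mitogenic signals reach the cell cycle, was measured by 2 probe sets. The brighter read 1195 in the mutant and 550.5 in wild type, a log2 ratio of 0.97, and the other read 666 in the mutant and 533 in wild type, a ratio of 0.24. Both had the mutant higher, by 1.96-fold and 1.18-fold, so that the size of the Ccnd1 difference depended on the probe set. Ccnd3, the third D-type cyclin, read 817 in the mutant and 725 in wild type, a ratio of 0.11 that is smaller than its spread of 0.55.

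Cdk4, the kinase partner of these cyclins, had a negative ratio. Its brighter probe set read 8957 in the mutant and 12186 in wild type, a ratio of -0.49 against a spread of 0.39, and the other read 1217 in the mutant and 1332 in wild type, a ratio of -0.17. A lower reading in the mutant was common at this brightness: among the upper tercile of all genes by signal, 65.9% were lower in the mutant, with a median of -0.17. After loess scaling, which removes a trend with brightness, and after quantile scaling, Cdk4 was at -0.16, within its spread, and its ratio ran from -0.53 to -0.16 over the alternatives. The G1 group had a median of 0.54 over 4 genes, 3 higher and 1 lower, and its range from -0.49 to 1.21 was the widest of the role groups. The median ran from 0.36 to 0.60 over the alternatives.

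The group for the start and the course of DNA replication held Ccne1, Ccna2, Cdk2 and Cdc25a above the filter and Ccna1 and Ccne2 below it. Ccne1, the cyclin that activates Cdk2 at the end of G1, read 435 in the mutant and 868 in wild type. It was 1.9-fold lower in the mutant, a ratio of -0.92 against a spread of 0.55, and ranked 386th from the lowest of 5587 genes. Its ratio ran from -1.05 to -0.74 over the alternatives, and it passed 2-fold only without a pseudocount. This gene rested on 1 probe set.

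The other genes of that group differed little. Cdk2, the kinase itself, read 1009 in the mutant and 820.2 in wild type with the brighter probe set, a ratio of 0.23, and 407 in the mutant against 248 in wild type with the dimmer, a ratio of 0.52. Cdc25a, the phosphatase that activates Cdk2, read 1348 in the mutant and 1154 in wild type, a ratio of 0.17. Ccna2, the cyclin of replication and of early mitosis, read 1826 in the mutant and 1939 in wild type, a ratio of -0.13 that turned to the other sign after quantile and loess scaling, where the highest value was 0.03. All 3 ratios were within their spread of 0.39. The group median was 0.02, with 2 genes higher and 2 lower, and it ran from -0.03 to 0.14 over the alternatives.

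The G2 and M group held Ccnb2, Cdk1, Ccnf, Cdc25c and Cks2, all above the filter. Ccnb1, Ccnb3 and Cdc25b also belong to it but had no probe set with that single gene symbol. Ccnb2, a mitotic cyclin, read 3223 in the mutant and 3173 in wild type, a ratio of -0.02 after centring. Cdk1, the mitotic kinase, read 2456 in the mutant and 2368 in wild type, a ratio of 0.01. These are among the smallest differences of all members.

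Ccnf, which encodes the F-box protein cyclin F, read 1699.9 in the mutant and 1491 in wild type, a ratio of 0.13. Cdc25c, a phosphatase that activates Cdk1, read 878 in the mutant and 887 in wild type with its brighter probe set, a ratio of -0.06, and 424 in the mutant against 358 in wild type with the other, a ratio of 0.16. Cks2, a small docking subunit of Cdk complexes, read 2169 in the mutant and 2558 in wild type, a ratio of -0.28. Its relative Cks1b, outside the naming pattern and not counted in this group, had a ratio of 0.26. No gene of this group exceeded its technical spread, and the ratios ran from -0.28 to 0.13. The median was -0.02. It had the other sign in 6 of 10 alternatives and reached 0.20 after loess scaling, so no direction is given for this group. On the scale used here, the median absolute log2 ratio was 0.06 in this group, 0.20 in the replication group and 0.73 in the G1 group. It was 0.37 over all genes and 0.28 over their upper tercile by signal. After loess scaling Ccnb2, Cdk1 and Ccnf were at 0.20, 0.20 and 0.27, and Cdc25c and Cks2 at -0.03 and -0.09. The small value of this group therefore depended on the scaling.

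**Figure D2:**
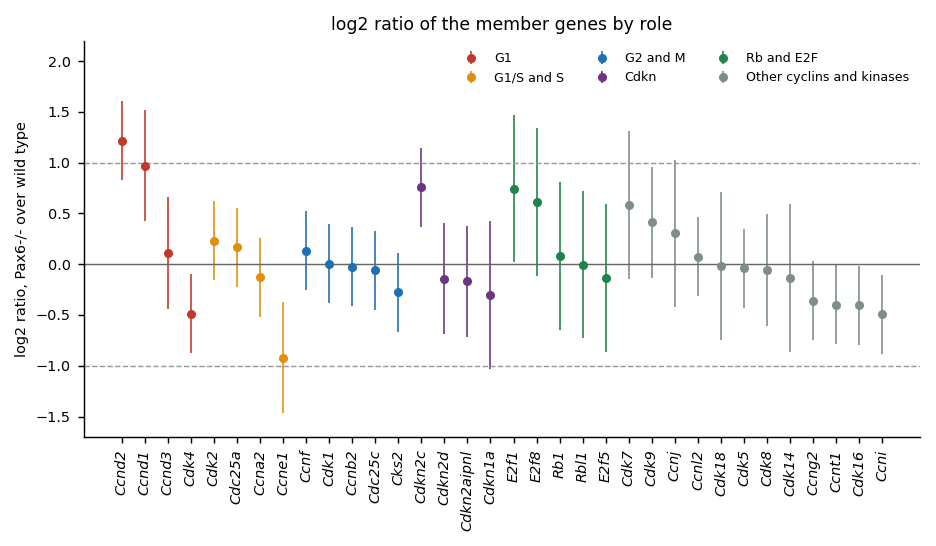
Log2 ratio (Pax6-/- over wild type) of the 34 member genes by role, with bars of 1 technical spread at the gene's signal level (not a replicate error) and dashed lines at 2-fold. Ccnd2 alone lies outside the dashed lines at 1.21, Ccnd1 (0.97) and Ccne1 (-0.92) lie just inside them, and the G2 and M genes lie between -0.28 and 0.13.

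The upstream sequences of these genes are shown because mitotic and replication genes are known to be read through different promoter elements, and 5 of the 6 genes printed lay within their technical spread on these arrays, the exception being Ccne1. Windows of 250 bases before the annotated start were taken from RefSeq (GRCm38.p6) and matched 36 of the 44 members by symbol; Ccna2, Ccnd1, Ccnd2, Ccne2, Cdc25c, Cdk5, E2f5 and Rb1 were not matched. Each sequence runs 5′ to 3′ on the gene's strand up to the start, and capitals mark matches on either strand to the E2F site (TTTGGCGC, TTTCGCGC, TTTCCCGC or TTTGCCGC), the cell cycle homology region or CHR (TTTGAA) or the CCAAT box (CCAAT).
Ccnb2 (chr9:70421555-70421804, minus strand): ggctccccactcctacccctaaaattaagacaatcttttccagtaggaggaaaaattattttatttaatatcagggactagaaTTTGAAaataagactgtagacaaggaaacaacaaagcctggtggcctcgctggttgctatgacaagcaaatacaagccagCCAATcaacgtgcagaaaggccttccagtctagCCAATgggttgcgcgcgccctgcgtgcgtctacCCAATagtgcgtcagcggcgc
Ccnf (chr17:24251410-24251659, minus strand): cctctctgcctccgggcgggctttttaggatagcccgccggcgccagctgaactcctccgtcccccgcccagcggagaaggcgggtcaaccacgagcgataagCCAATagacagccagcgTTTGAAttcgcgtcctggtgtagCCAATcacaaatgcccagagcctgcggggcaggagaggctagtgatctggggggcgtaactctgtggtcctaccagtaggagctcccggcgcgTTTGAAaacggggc
Cdk1 (chr10:69352913-69353162, minus strand): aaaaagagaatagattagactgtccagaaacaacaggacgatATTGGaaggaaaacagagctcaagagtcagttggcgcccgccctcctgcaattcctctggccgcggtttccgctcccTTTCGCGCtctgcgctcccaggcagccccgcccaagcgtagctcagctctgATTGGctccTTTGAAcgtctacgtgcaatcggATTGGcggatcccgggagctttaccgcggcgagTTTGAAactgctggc
Cdc25a (chr9:109875329-109875578, plus strand): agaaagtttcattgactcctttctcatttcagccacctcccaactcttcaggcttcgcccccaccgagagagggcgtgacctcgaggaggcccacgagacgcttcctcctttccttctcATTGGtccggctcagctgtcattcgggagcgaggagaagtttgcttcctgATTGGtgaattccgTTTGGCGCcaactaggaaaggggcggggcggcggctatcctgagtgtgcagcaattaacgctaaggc
Cdk2 (chr10:128705052-128705301, minus strand): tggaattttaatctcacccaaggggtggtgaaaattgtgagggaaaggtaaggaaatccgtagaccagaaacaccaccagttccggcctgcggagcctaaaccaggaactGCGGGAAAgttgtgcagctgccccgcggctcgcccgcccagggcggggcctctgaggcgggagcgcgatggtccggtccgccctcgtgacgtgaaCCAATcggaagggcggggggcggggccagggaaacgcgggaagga
Ccne1 (chr7:38107491-38107740, minus strand): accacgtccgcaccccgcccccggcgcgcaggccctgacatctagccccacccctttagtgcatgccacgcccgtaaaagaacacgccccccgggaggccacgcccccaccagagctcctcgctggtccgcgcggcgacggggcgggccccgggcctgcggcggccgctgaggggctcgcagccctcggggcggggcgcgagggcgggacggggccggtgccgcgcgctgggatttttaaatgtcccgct

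The CHR letters were found in 3 of the 4 G2 and M genes with a window, namely Ccnb2, Ccnf and Cdk1, and in 0 of the 4 replication genes. They were also found in 3 of 5 pocket protein and E2F genes, 2 of 8 inhibitors, 2 of 13 other cyclins and kinases and 0 of 2 G1 genes with a window. In Cdk1 the nearest match began 15 bases before the start and in Ccnf 14 bases before it. The only match in Ccnb2 began 167 bases before the start, farther away than its CCAAT matches. The CCAAT letters were present in all 4 G2 and M windows, with 3 matches in Ccnb2 spaced from 87 to 21 bases before the start. They were also found in 3 of 4 replication genes, 7 of 13 other cyclins and kinases and 4 of 8 inhibitors. Among pocket protein and E2F genes 2 of 5 held them, and among G1 genes 1 of 2. Of the genes printed, Cdc25a (67 bases before the start), Cdk2 (140 bases) and Cdk1 (131 bases) held an E2F match. Rbl1, E2f3 and Cdkn2a, not printed here, also held one. None of the 3 motifs was found in the Ccne1 window. Among all 32851 windows of this length, 1.86% held an E2F match, 16% a CHR match and 33.8% a CCAAT match, and the counts over the 42 windows of the members were 6, 10 and 21. No matches overlapped. These matches are descriptions of letters and not of bound sites.

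The inhibitors were measured by 8 genes, 4 of them above the filter, and did not share a direction. Cdkn2c, an inhibitor of Cdk4 and Cdk6, read 1259 in the mutant and 687 in wild type. It was 1.69-fold higher, a ratio of 0.76 and 1.95 times its spread of 0.39, and it ran from 0.65 to 0.82 over the alternatives. Its relative Cdkn2d read 680.3 in the mutant and 734 in wild type, a ratio of -0.14.

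Cdkn1a, an inhibitor induced by p53, gave opposite answers from its 2 probe sets. The brighter read 366 in the mutant and 452 in wild type, a ratio of -0.30, while the other read 433 in the mutant and 135 in wild type, a ratio of 1.20 from a wild type reading below the level of the filter. Averaging both moved the gene to 0.45, so no direction is given. Cdkn2aipnl, which is named for a relative of a partner of Cdkn2a and is not itself an inhibitor, read 543 in the mutant and 598 in wild type, a ratio of -0.17. The median of the group was -0.16, -0.14 without Cdkn2aipnl, and 0.15 when the probe sets of a gene were averaged.

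The other inhibitors were below the filter. Cdkn1b, which promotes exit from the cell cycle in cortical progenitors, lay just under it, with 55.3 in the mutant and 286 in wild type on its brighter probe set and 35.3 in the mutant and 82.9 in wild type on the other. Both of its probe sets were lower in the mutant, the mutant readings being under the pseudocount. Cdkn2a, an inhibitor of Cdk4 and Cdk6, read 80.9 in the mutant and 70.3 in wild type. Cdkn2b, another of that family, read 66.9 in the mutant and 7.83 in wild type. Cdkn3, a phosphatase that acts on Cdk proteins, read 101 in the mutant and 42.2 in wild type. These signals are too dim for a ratio to be read.

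Among the Rb family and E2F factors, the targets of the G1 kinases, 5 of 7 genes were above the filter. E2f1, an activator of replication genes, read 380.3 in the mutant and 186 in wild type, a ratio of 0.74 against a spread of 0.73. Its second probe set, below the filter, read 83.4 in the mutant and 113 in wild type. E2f8, an atypical E2F that represses transcription, was higher in the mutant by both probe sets, with 503 in the mutant against 289 in wild type and 279.8 in the mutant against 110.4 in wild type, ratios of 0.61 and 0.87. For the second of these the wild type reading lay below the level of the filter. Both E2f8 probe sets carry the same accession in the annotation, so they are not independent readings.

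The pocket proteins differed little. Rb1 read 300.2 in the mutant and 269 in wild type, a ratio of 0.08 that changed sign with quantile and loess scaling, and its dimmer probe set read 169 in the mutant and 65.2 in wild type. Rbl1, a relative of Rb1, read 404 in the mutant and 390.1 in wild type, a ratio of 0.00. E2f5, which works with the pocket proteins, read 383 in the mutant and 414 in wild type, a ratio of -0.14. Below the filter, E2f3 read 26.3 in the mutant and 159.9 in wild type, and Rbl2 read 161 in the mutant and 150.2 in wild type. The group median was 0.08, with 3 genes higher and 2 lower, and it turned to the other sign after quantile scaling, loess scaling and with no filter, where the lowest value was -0.09.

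The remaining cyclins and kinases act mostly outside the core cycle, and 12 of 14 were above the filter, 4 higher and 8 lower, with a median of -0.05. Several of them act on RNA polymerase II. Cdk7, which also activates other Cdk proteins, read 421 in the mutant and 243 in wild type, a ratio of 0.58 against a spread of 0.73. Cdk9 read 812 in the mutant and 568 in wild type, a ratio of 0.41 against a spread of 0.55. Its cyclin partner Ccnt1 was instead lower, with 907 in the mutant and 1181 in wild type, a ratio of -0.40 against a spread of 0.39. Cdk8, the kinase of the Mediator complex, read 758 in the mutant and 765 in wild type, a ratio of -0.06, and its partner Ccnc, below the filter, read 119 in the mutant and 212 in wild type.

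Ccni, an atypical cyclin, had the lowest ratio of this group, with 1726 in the mutant and 2386 in wild type, a ratio of -0.49 against a spread of 0.39. Its other 2 probe sets were below the filter and also had the mutant lower, at 86.5 in the mutant against 143 in wild type and at 1.66 in the mutant against 2.22 in wild type. Cdk16, a kinase of the PCTAIRE group, read 1009.8 in the mutant and 1320.2 in wild type, a ratio of -0.41 against a spread of 0.39. Ccng2, a cyclin linked to cell cycle arrest, read 1521 in the mutant and 1912 in wild type, a ratio of -0.36. Its relative Ccng1, below the filter, read 93.2 in the mutant and 137 in wild type. The ratios of Ccni and Cdk16 were within their spread after quantile and loess scaling, and that of Ccng2 was within it on the scale used here.

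Cdk5, the kinase of postmitotic neurons, was nearly equal, with 1074 in the mutant and 1069 in wild type. The remaining ratios were 0.30 for Ccnj, 0.07 for Ccnl2, a cyclin of the splicing machinery, -0.02 for the kinase gene Cdk18 and -0.13 for the kinase gene Cdk14, each within its spread. The second Cdk14 probe set, below the filter, read 24.2 in the mutant and 62.7 in wild type. A pair of replication cyclins was also below the filter: Ccna1, a germ line cyclin, read 137 in the mutant and 101 in wild type, and Ccne2 read 13.4 in the mutant and 49.4 in wild type. In all, the 10 genes below the filter had signals from 7.83 to 286.

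**Figure D3:**
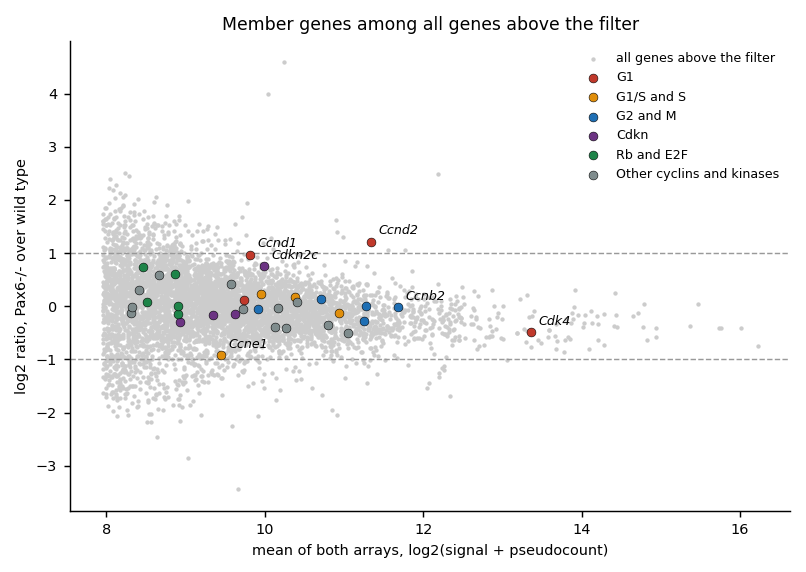
Log2 ratio (Pax6-/- over wild type) against the mean of both arrays on the scale of log2(signal + pseudocount), for all 5587 genes above the filter (grey) and the 34 member genes (coloured by role), with dashed lines at 2-fold. Most members lie inside the grey cloud at their brightness; Ccnd2 lies above it at a brightness where few genes pass the upper line.

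Set against the technical spread at its own signal level, 9 of the 34 members (26.5%) had a larger ratio, against 1832 of all genes (32.8%). The 9 were Ccnd2, Cdkn2c, Ccnd1 and E2f1 on the higher side and Ccne1, Ccni, Cdk4, Cdk16 and Ccnt1 on the lower side. After quantile scaling and after loess scaling 4 remained past it, Ccnd1, Ccnd2, Ccne1 and Cdkn2c, while Cdk4, Ccni, Cdk16, Ccnt1 and E2f1 were within their spread. Over the other alternatives the number was from 6 to 11, and these counts were added after seeing the data. Of the 12 members with several probe sets, 9 had the same sign in all of them, and Cdkn1a, E2f1 and Cdc25c did not.

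**Figure D4:**
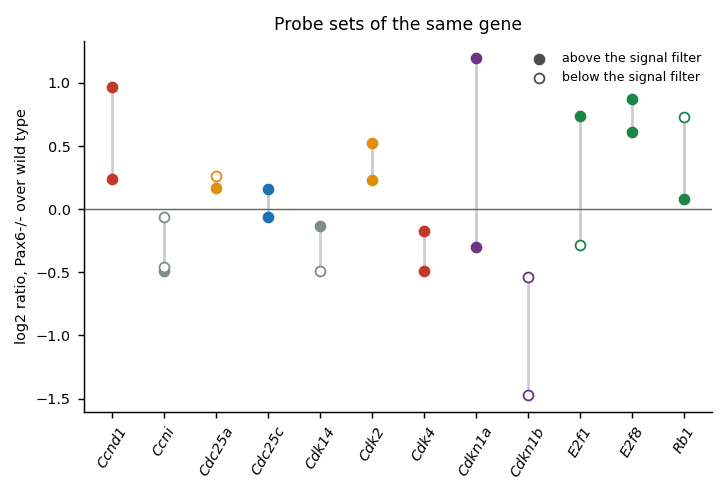
Log2 ratio (Pax6-/- over wild type) of every probe set for the 12 members with more than 1, filled where the probe set was above the filter and open where it was below, with a line joining the probe sets of a gene. Cdkn1a spans from -0.30 to 1.20, while both E2f8 probe sets lie at 0.61 and 0.87 and both Cdk4 probe sets lie below 0.

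Other cell cycle genes, which the family names do not take in, were mostly higher in the mutant by small amounts. Of all genes above the filter 48.4% were higher. Among 17 measured replication genes past the filter, 16 were higher in the mutant and 1 was lower. Their median was 0.37, below the smallest technical spread of 0.39. Cdc45, a component of the active replicative helicase, read 971 in the mutant and 177 in wild type, a ratio of 1.98. Orc1, of the origin recognition complex, read 312 in the mutant and 122 in wild type, a ratio of 0.91, and passed the filter through the mutant array. Rrm2, a subunit of ribonucleotide reductase, read 2883 in the mutant and 1626 in wild type, a ratio of 0.75. Prim1, of the DNA primase, had a ratio of 0.54 against a spread of 0.73. The median stayed between 0.34 and 0.42 over the alternatives.

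Among 19 mitosis genes past the filter, 17 were higher in the mutant and 2 were lower, 0 of them by 2-fold, with a median of 0.29 that stayed between 0.23 and 0.34. Top2a, which encodes a topoisomerase of dividing cells, read 1477 in the mutant and 871 in wild type, a ratio of 0.66. Ube2c, which serves the anaphase-promoting complex, had a ratio of 0.63. Mki67, the proliferation marker, read 1554 in the mutant and 973 in wild type, a ratio of 0.59. Incenp, of the chromosomal passenger complex, had a ratio of 0.55. Set beside them, the 5 G2 and M members of the cyclin and kinase families had a median of -0.02, which ran from -0.07 to 0.20 over the alternatives. After quantile scaling this median was 0.19 and that of the mitosis list 0.32, and after loess scaling they were 0.20 and 0.32. Whether the lists differ could not be tested.

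**Figure D5:**
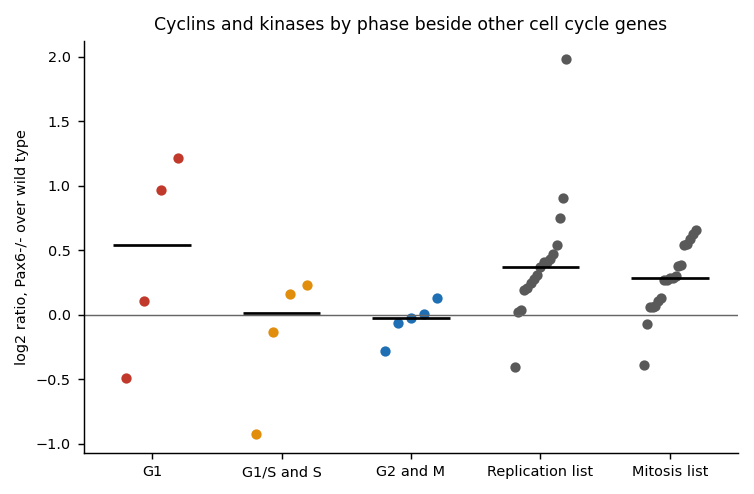
Log2 ratio (Pax6-/- over wild type) of the cyclins, kinases and phosphatases of G1, of G1/S and S, and of G2 and M, beside the replication and mitosis lists, 1 point per gene above the filter and a bar at the median. The medians are 0.54, 0.02 and -0.02 for the phases and 0.37 and 0.29 for the lists.

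Marker transcripts of several cell types also differed between the arrays, and the part of tissue make-up in these ratios was not tested. Of the measured cortical neuron markers (Tbr1, Neurod2, Neurod6), all 3 were present above the filter and lower in the mutant, and all 6 general neuron markers were lower by the centred ratio, with a median of -0.64 that ran from -0.69 to -0.42 over the alternatives and a summed signal of 24265 in the mutant and 30268 in wild type. Among these Stmn2 was nearly equal, with 3292 in the mutant and 3278 in wild type, and 4 of the 6 were lower after quantile and loess scaling. Of 8 radial glia markers, 2 were higher and 6 lower, with a median of -0.15, which ran from -0.25 to 0.01 over the alternatives, and a summed signal of 17044 in the mutant and 15650.0 in wild type. Sox2 read 5042 in the mutant and 2304 in wild type, and without it, a choice made after seeing the data, the sum was 12002 in the mutant and 13346 in wild type. After quantile and loess scaling 4 of the 8 were higher and 4 lower. Of 4 intermediate progenitor markers 3 were at least 2-fold lower, and the sum was 6717 in the mutant and 10781 in wild type. The other, Insm1, was higher, with 5384 in the mutant and 3868 in wild type, a ratio of 0.42. Insm1 made up most of the mutant sum. The 4 subpallial markers measured were all higher, with sums of 11379 in the mutant and 669 in wild type. Of these Dlx1 and Dlx5 read 162 and 113 in wild type, below the level of the filter, and passed it through the mutant array. The sums that follow cover every listed marker on the array, and the counts only those above the filter. For 9 meningeal markers the sums were 4624 in the mutant and 3965 in wild type, and 4 of 6 were higher. Of these 4, Foxc2 and Col1a1 read 120.4 and 140.0 in wild type, below the level of the filter. Both passed it through the mutant array. For 6 endothelial markers the sums were 1642 in the mutant and 995 in wild type, and 2 of 3 were higher. For 5 microglial markers they were 3108 in the mutant and 1615 in wild type, and 3 of 4 were higher. Laptm5, the lower one, read 154 in the mutant and passed the filter through the wild type array. For 4 erythroid markers the sums were 6319 in the mutant and 8369 in wild type, and 1 of 3 was higher.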

How the data were processed

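Signal intensities, 1 per probe set and array on a linear scale, were made by the authors with MAS5, per the submitters' processing notes; no version, scaling target or detection call was given in the sources used here. The 2% trimmed mean was 500.2 on both deposited arrays and the median 284 (mutant) and 237 (wild type). Biotinylated RNA was hybridised to Affymetrix arrays, per the labels' protocols. GEO's platform annotation named the genes. To each signal the 25th percentile of all of them was added as a pseudocount, log2 was taken, the difference was centred (shift 0.05), and probe sets with a mean log2 value under the 40th percentile were left out. Role groups, lists and members were chosen with earlier results of these data known. Every member is named, and of each further cell cycle list the 4 genes with the largest absolute ratio. With 1 array per genotype, differences are given by size; the number of arrays limits their precision. The alternatives left out the centring, scaled by quantiles or by loess (fraction 0.4, 3 iterations), or used other pseudocounts, filters and folds, and other rules for several probe sets. The calculation, with its filter, centring and choice of probe set, was run on simulated data with planted changes. The changed genes were drawn from those above the filter, and all probe sets of a gene carried the same change. The run could therefore say little about the filter or the choice of probe set. That test used no pseudocount and less noise than the technical spread, and the spread itself was not tested. Python 3.11.15, numpy 2.4.6, pandas 2.3.3, statsmodels 0.14.6 and matplotlib 3.10.9 were used.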

Additional observations from a re-analysis of the deposited data

How the results depend on the processing

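The number of members at least 2-fold higher was 1, and it was 2 with no centring, with no pseudocount and with the 60th-percentile filter, where Ccnd1 joined Ccnd2, 5 at a threshold of 1.5-fold and 0 at 3-fold. The number at least 2-fold lower was 0, and it was 1 with no pseudocount (Ccne1), 1 at 1.5-fold (Ccne1) and 2 with no filter (Cdkn1b and E2f3). Over all genes, 282 were higher and 306 lower. The higher count was 447 with no pseudocount, and the higher and lower counts were 90 and 128 with the 50th-percentile pseudocount, 498 and 526 with no filter, 97 and 114 with the 60th-percentile filter, 785 and 844 at 1.5-fold and 58 and 68 at 3-fold. The median of the inhibitors was 0.15 when probe sets were averaged within a gene. Of 298 recomputed gene ratios 297 moved by less than the technical spread, Cdkn1a being the exception, and 25 of 34 genes kept their sign throughout. Of 65 recomputed group medians 64 moved by less than a yardstick. This was the technical spread over all signal levels, 0.57, divided by the square root of the number of genes in the group. The cause of these changes was not tested. The medians without Cdkn2aipnl among the inhibitors (-0.14) and with Ccna2 among the G2 and M genes (-0.04) were chosen after seeing the data. No paired analysis was possible because each genotype has 1 array.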

Other observations

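Genes that restrain division or respond to growth signals, a list not described above, had no shared direction. Past the filter were 6 such genes, 3 with a higher and 3 with a lower reading in the mutant, with a median of -0.12 that ran from -0.13 to 0.18 over the alternatives. Tob1, an antiproliferative gene, read 162 in the mutant and 437 in wild type, a log2 ratio of -1.13, where the technical spread was 0.73. Its mutant reading lay just below the level of the filter. Btg2, a relative that marks progenitors committed to make neurons, read 2834 in the mutant and 3681 in wild type, a ratio of -0.41. Btg1, of the same family, was at 0.39, and Mdm2, a target and regulator of p53, was at 0.35. Cdk5r1, the activator of the neuronal kinase Cdk5, read 751 in the mutant and 705 in wild type, a ratio of 0.04, beside the nearly equal readings of Cdk5 itself.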
